A study of Mus musculus with 15 samples.

Results

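The genes described here are the 10 enzymes and partner proteins that make prostanoids and leukotrienes and are listed by symbol as Ptgs1, Ptgs2, Ptgis, Ptges, Ptgds, Tbxas1, Alox5, Alox5ap, Ltc4s and Lta4h. They were taken by name from an RNA-seq table of 34714 genes in mouse aorta, and all 10 were found. The choice was made with earlier results of these data known. The table covers 3 groups of 5 libraries from wild-type mice. AngII + RvE1 mice received angiotensin II, a vasoconstrictor peptide, as an infusion of 750 ng per kg each minute together with intraperitoneal resolvin E1 at 2 µg per kg per day. AngII mice received the angiotensin II infusion at the same rate, which was used to induce hypertension. Sham mice served as controls, and what the sham procedure consisted of is not given in the sources used here, nor are strain, sex, age, length of treatment and whether AngII and Sham mice received a vehicle injection. Values are treated as FPKM, a read density scaled to gene length and library size. Nothing in the labels states that each library is 1 animal, so the p-values measure the spread among these libraries, which may be partly technical.

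Prostanoids and leukotrienes are short-lived lipid signals made from arachidonic acid that phospholipases release from membranes. Cyclooxygenases turn arachidonic acid into prostaglandin H2, and terminal synthases convert that into prostacyclin, thromboxane, prostaglandin E2 or prostaglandin D2. In arteries prostacyclin, made by endothelium and smooth muscle, relaxes the vessel wall and restrains platelets, whereas thromboxane, made mainly by platelets and macrophages, does the opposite. Leukotrienes are made mainly by leukocytes: 5-lipoxygenase and its activating protein form leukotriene A4, which leukotriene A4 hydrolase turns into the chemoattractant leukotriene B4 and leukotriene C4 synthase turns into the constrictor leukotriene C4. Resolvin E1, the agent injected here, is made from eicosapentaenoic acid, and 5-lipoxygenase takes part in its synthesis too.

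The libraries differed in cell type markers as well as treatment. The FPKM sum per library was 385846 to 514281, and read depth is unknown, so no counting intervals are given. AngII libraries 3, 4 and 5 had 12882 to 12996 genes at a value of 1 or more, against 11466 to 12248 in the other 12 libraries, and their summed FPKM of 10 lymphocyte markers was 284 to 1307, against 3.86 to 60.8 elsewhere. Differences of the 10 genes that involve AngII are therefore also given without these 3 libraries, which leaves 2 AngII libraries. All 8 smooth muscle and all 8 endothelial markers were above 0 in every group, and adipocyte markers were also abundant, with sums of 8300 to 20639 FPKM over the 15 libraries. Red cell markers summed to 28048 to 78370 FPKM in AngII + RvE1, 7580 to 44169 in AngII and 5346 to 19675 in Sham, without overlap between AngII + RvE1 and Sham. Sums of cardiac muscle markers ran from 10.4 to 2143 FPKM over the 15 libraries. The part of these tissues in the results was not tested.

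Expression of the 10 enzyme genes spanned a wide range on the FPKM scale. Ptgis, which encodes prostacyclin synthase, had a mean of 161 FPKM over the 15 libraries and was the most abundant of the 10 in 13 of them. In AngII library 3 it was below Alox5ap and Ltc4s, and in AngII library 5 it was below Ltc4s and Lta4h. Ltc4s, leukotriene C4 synthase, came next at 33.6 FPKM, and Lta4h at 18.7 and Alox5ap at 15.2 FPKM followed. Ptgds averaged 7.31 and Ptgs1 7.11 FPKM, a difference well within their spread. Ptges at 3.44, Ptgs2 at 2.17, Tbxas1 at 1.79 and Alox5 at 1.39 FPKM were the lowest of the set. The ranges of neighbours in this order overlapped in every case. Ptgs2 reached a value of 1 in 9 libraries, Tbxas1 in 7 and Alox5 in 11, and the other 7 genes did so in all 15. All 10 reached 1 in 5 or more libraries, the filter used, and were tested with 12603 genes in all. Tbxas1 met this filter only through the AngII libraries, the group where it was highest. Its separation of AngII from the other groups is therefore not independent of the filter.

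**Figure D1:**
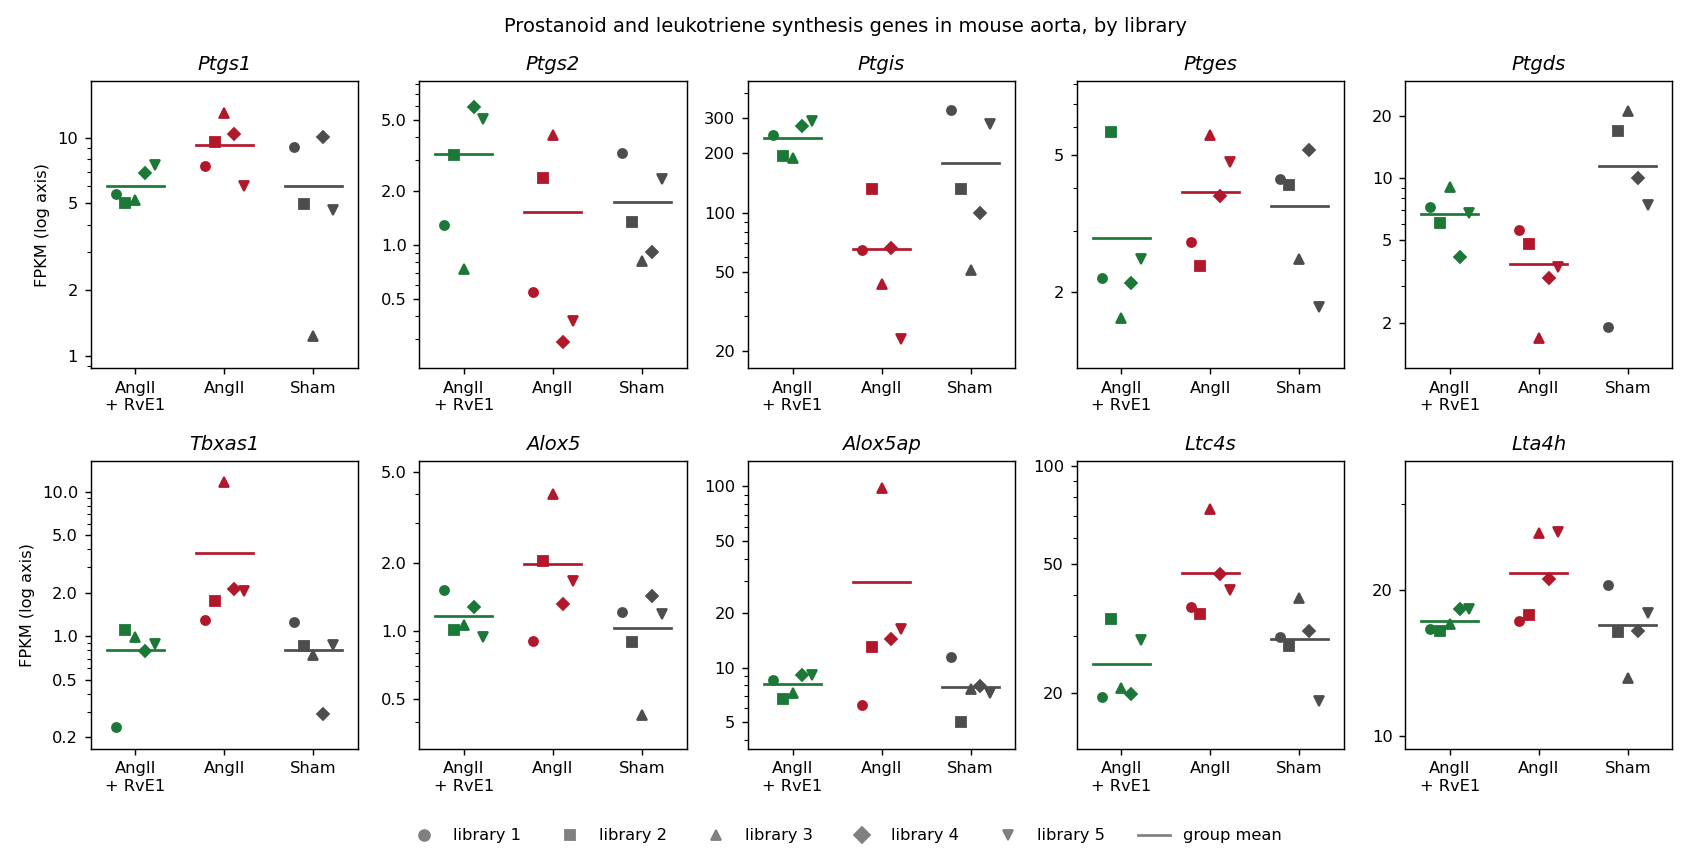
FPKM of each of the 10 enzyme genes (log axes) in AngII + RvE1, AngII and Sham libraries, 1 point per library with the library number given by the marker, and the group mean as a line. AngII + RvE1 libraries lay above all AngII libraries for Ptgis and below all of them for Ltc4s and Tbxas1.

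AngII + RvE1 against AngII asks which of these genes differed when resolvin E1 was added to the infusion. Prostacyclin synthase rose and leukotriene C4 synthase fell, and no other gene of the 10 passed the test. In limma's moderated test on log2(FPKM + 1), at a Benjamini-Hochberg adjusted p of 0.05 over all tested genes, 1 of 10 was higher and 1 of 10 lower. Over all tested genes 4.21% were called higher and 4.31% lower, 8.52% in either direction, a background at which about 1 of 10 genes would be called. At an unadjusted p under 0.05 the count was 4 of 10, against 29.0% of all tested genes. The median difference of the 10 was -0.38 on the log2 scale, against -0.11 for all tested genes. Libraries of the groups did not overlap for 3 genes, Ptgis higher and Ltc4s and Tbxas1 lower, where 5.87% and 5.23% of all tested genes separated upward and downward.

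AngII against Sham asks what the infusion itself was accompanied by. None of the 10 enzyme genes was called by limma, against 3.17% of all tested genes (2.36% higher and 0.809% lower). At an unadjusted p under 0.05 there were 7 of 10, against 26.2% of all tested genes. Differences were positive for 7 of 10, and for 8127 of all 12603 tested genes. The median was 0.42 on the log2 scale, against 0.11 for all tested genes. Rescaling each library by its median ratio changed the balance of calls over all tested genes, from 298 higher and 102 lower to 259 higher and 282 lower, and in AngII + RvE1 against AngII from 531 higher and 543 lower to 819 higher and 479 lower. It turned the sign of none of the 10 genes. Tbxas1 alone of the 10 had no overlap between these groups, where 2.92% of tested genes separated upward.

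AngII + RvE1 against Sham gave 0 of 10 called by limma, against 0.0238% of all tested genes (0.0159% higher and 0.00793% lower), and 0 of 10 at an unadjusted p under 0.05, against 6.69% of all. Adjusted p-values ran from 0.878 to 1.0, the libraries of the groups overlapped for all 10 genes, and the median difference was 0.06 on the log2 scale, against 0.01 for all tested genes. A missed threshold does not show that the groups were alike: for Ptgis the 95% interval of this difference ran from -0.32 to 1.72. The AngII libraries enter both of the first 2 comparisons, and the Sham libraries both of the last 2, so the values of a gene across comparisons are not independent.

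**Figure D2:**
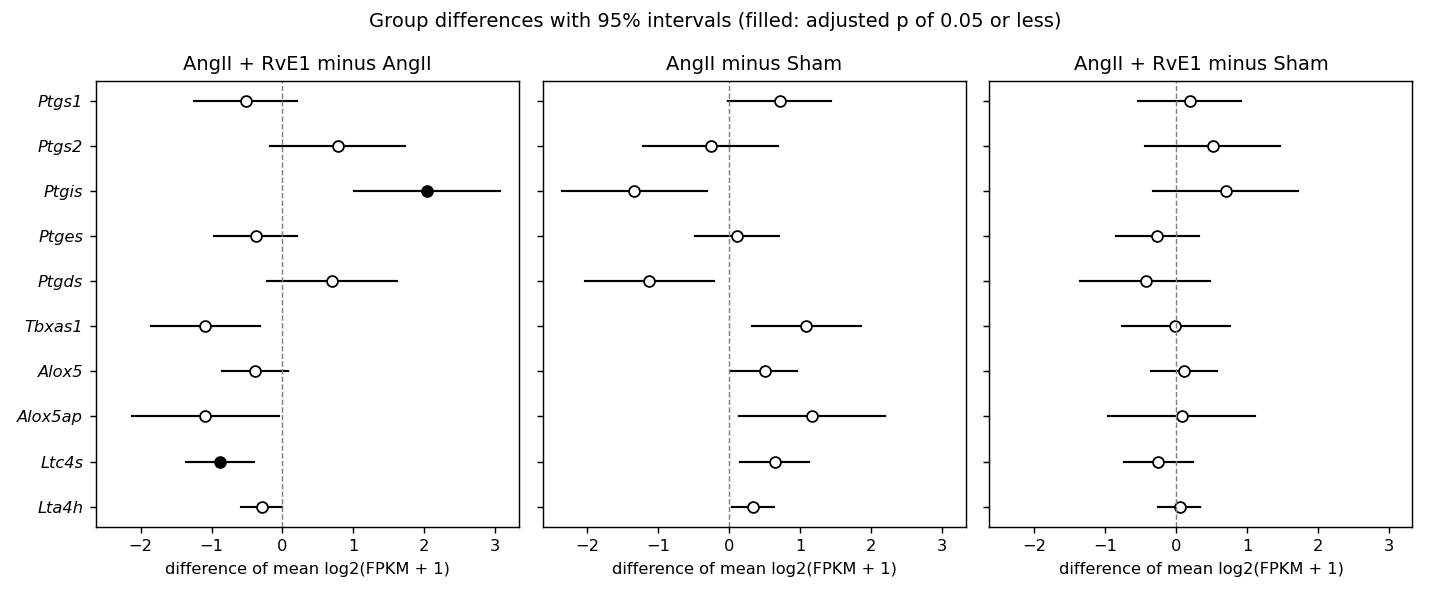
Log2 differences of the 10 enzyme genes on the log2(FPKM + 1) scale with 95% intervals from limma for AngII + RvE1 against AngII, AngII against Sham and AngII + RvE1 against Sham, with filled points for called genes. Filled points appear only for Ptgis (2.03) and Ltc4s (-0.88) in AngII + RvE1 against AngII.

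Both cyclooxygenase genes, which carry out the first step toward every prostanoid, missed the threshold in all 3 comparisons. Ptgs1, the form most cells make constantly, had 5.54, 5.01, 5.17, 6.89 and 7.52 FPKM in AngII + RvE1 libraries, 7.40, 9.59, 13, 10.4 and 6.03 FPKM in AngII libraries, and 9.05, 4.99, 1.23, 10.1 and 4.68 FPKM in Sham libraries. Sham libraries spread below and across the range of the other groups, up to 10.1 FPKM. Its difference was -0.52 (SE 0.34, limma adjusted p = 0.326) for AngII + RvE1 against AngII and 0.71 (SE 0.34, adjusted p = 0.200) for AngII against Sham, and without AngII libraries 3, 4 and 5 these were -0.44 and 0.63. Ptgs2, the form induced by inflammation and growth signals, had 1.30, 3.17, 0.740, 5.90 and 5.09 FPKM in AngII + RvE1 libraries, 0.550, 2.37, 4.11, 0.287 and 0.377 FPKM in AngII libraries, and 3.27, 1.34, 0.819, 0.917 and 2.35 FPKM in Sham libraries. The 3 groups overlapped, and 3 AngII libraries held the lowest values of the 15. The difference was 0.78 (SE 0.45, adjusted p = 0.264) for AngII + RvE1 against AngII and -0.26 (SE 0.45, adjusted p = 0.745) for AngII against Sham, and 0.70 and -0.18 without the 3 libraries.

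Ptgis (chr2:167203194-167252150, mm10) encodes prostacyclin synthase, the enzyme that makes the vasodilator prostacyclin. It had 246, 193, 189, 272 and 291 FPKM in AngII + RvE1 libraries, 65, 131, 43.7, 66.1 and 23.0 FPKM in AngII libraries, and 329, 131, 51.1, 99.7 and 280 FPKM in Sham libraries. Every AngII + RvE1 library was above every AngII library, and Sham libraries spread across both. Ptgis averaged 238 ± 46.2 FPKM in AngII + RvE1, 65.7 ± 40.3 FPKM in AngII and 178 ± 120 FPKM in Sham (SD, n = 5 each). It was higher in AngII + RvE1 than in AngII by 2.03 on the log2 scale (SE 0.48, 95% interval 1.01 to 3.06, limma adjusted p = 0.0245). For AngII against Sham the difference was -1.34 (SE 0.48, adjusted p = 0.107), and for AngII + RvE1 against Sham it was 0.70 (SE 0.48, adjusted p = 0.878). Over the 12 libraries without AngII 3, 4 and 5 the first difference was 1.34 (SE 0.58) and was no longer called (adjusted p = 0.422), and for AngII against Sham it was -0.64. Leaving out AngII library 3 or 5, or AngII + RvE1 library 1, 4 or 5, singly gave adjusted p-values of 0.0546 to 0.0730. Ptgis overlaps the gene 1110018N20Rik on the opposite strand, and whether the counting used strand is not given in the sources used here, so reads of the pair may be mixed.

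Smooth muscle markers moved with Ptgis. Of the 8 on the list (Acta2, Myh11, Tagln, Cnn1, Lmod1, Smtn, Des and Myocd), 7 were higher and 0 lower in AngII + RvE1 than in AngII, with a median difference of 1.85, and without AngII libraries 3, 4 and 5 none was called and the median was 1.52. Their summed FPKM was 5355 to 9626 in AngII + RvE1, 1195 to 3378 in AngII and 1741 to 12140 in Sham, and none of the 8 was at 0 in any group. For AngII against Sham 1 of 8 was lower and 0 higher, with a median of -1.24, and without the 3 libraries none was called and the median was -0.85. As a percentage of that sum Ptgis was 2.81 to 3.60 in AngII + RvE1, 1.93 to 3.86 in AngII and 2.38 to 3.44 in Sham, with a median of 2.91 in AngII + RvE1, 2.90 in AngII and 2.89 in Sham. Across the 15 libraries, which share tissue content and normalisation, Pearson's r of Ptgis with the list mean was 0.98 on the log2 scale, and it was also 0.98 over the 12 libraries left without AngII 3, 4 and 5. The part of smooth muscle content in the Ptgis result was not tested. In bulk tissue, fewer cells of a type and less RNA per cell cannot be told apart.

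**Figure D3:**
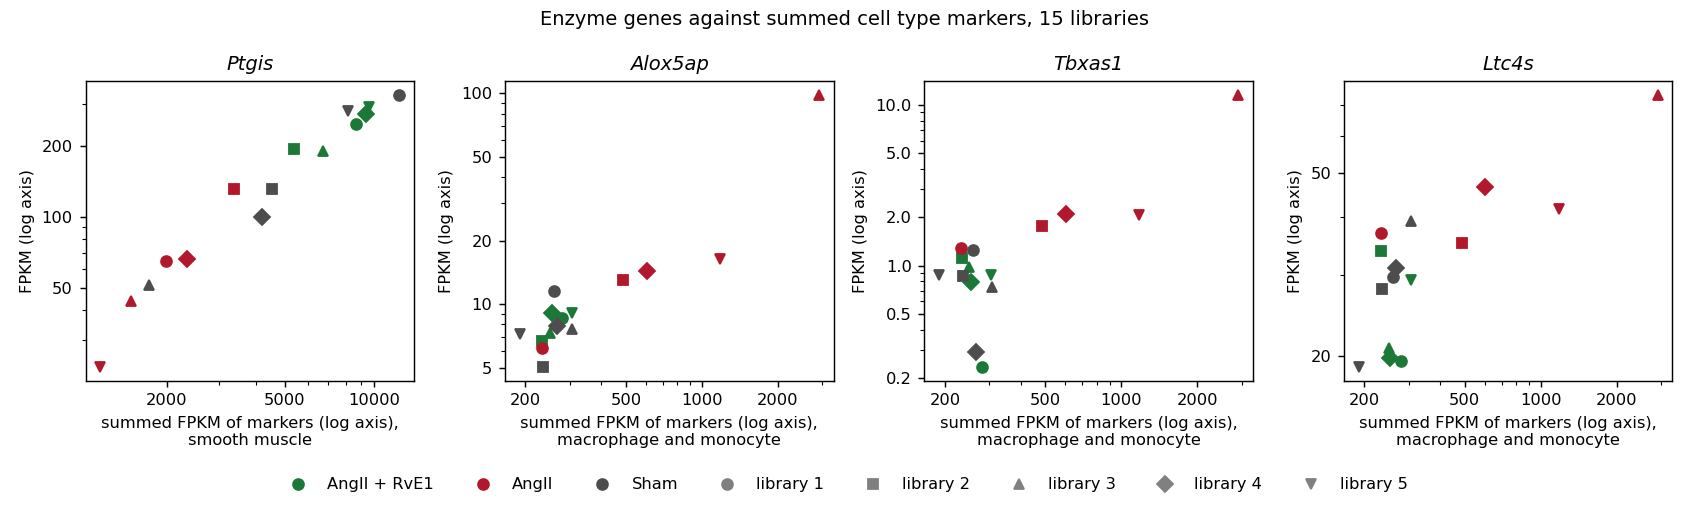
FPKM of Ptgis against the summed FPKM of 8 smooth muscle markers, and of Alox5ap, Tbxas1 and Ltc4s against the summed FPKM of 9 macrophage and monocyte markers, in 15 libraries (log axes; color gives the group and marker shape the library number). Over the 15 libraries Ptgis followed the smooth muscle sum (r of 0.98 with the mean of the list), and AngII library 3 was highest for the other 3 genes at a marker sum of 2906.

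Tbxas1 (chr6:38864159-39084590, mm10) encodes thromboxane A synthase, whose product constricts arteries and activates platelets. Its values were 0.234, 1.11, 0.981, 0.791 and 0.879 FPKM in AngII + RvE1 libraries, 1.29, 1.76, 11.6, 2.11 and 2.06 FPKM in AngII libraries, and 1.26, 0.860, 0.740, 0.289 and 0.876 FPKM in Sham libraries. All 5 AngII libraries lay above all libraries of the other groups, with AngII library 3 far above the rest, although AngII library 1 and Sham library 1 differed only slightly. Outside AngII, Tbxas1 reached 1 only in AngII + RvE1 library 2 and Sham library 1, so it passed the filter through AngII. Tbxas1 averaged 0.799 ± 0.337 FPKM in AngII + RvE1, 3.76 ± 4.37 in AngII and 0.804 ± 0.348 in Sham. Despite that separation it was not called: the difference was -1.09 (SE 0.36, limma adjusted p = 0.0698) for AngII + RvE1 against AngII and 1.08 (SE 0.36, adjusted p = 0.0896) for AngII against Sham. Leaving out AngII library 1 brought both past the threshold, at -1.27 (adjusted p = 0.0381) and 1.26 (adjusted p = 0.0432), and leaving out AngII library 2 brought the first past it (adjusted p = 0.0466). Without AngII libraries 3, 4 and 5 the differences were -0.51 and 0.50. Because 1 is added before the logarithm, differences of genes this low are understated. Tbxas1 overlaps Hipk2 and 1700025N23Rik on the opposite strand, so reads of these genes may be mixed.

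The other prostanoid synthases passed no test. Ptges, the inducible prostaglandin E synthase, had 2.2, 5.83, 1.69, 2.13 and 2.5 FPKM in AngII + RvE1 libraries, 2.79, 2.38, 5.70, 3.81 and 4.76 FPKM in AngII libraries, and 4.26, 4.08, 2.49, 5.16 and 1.82 FPKM in Sham libraries. The groups overlapped throughout, with a difference of -0.38 (SE 0.28, limma adjusted p = 0.384) for AngII + RvE1 against AngII and 0.11 (SE 0.28, adjusted p = 0.828) for AngII against Sham. Leaving out AngII libraries 3, 4 and 5 turned both signs, to 0.03 and -0.29. Ptgds, the lipocalin-type prostaglandin D synthase, had 7.27, 6.05, 9.07, 4.18 and 6.79 FPKM in AngII + RvE1 libraries, 5.60, 4.81, 1.69, 3.31 and 3.74 FPKM in AngII libraries, and 1.90, 16.8, 21.0, 10 and 7.42 FPKM in Sham libraries. Sham library 1 was among the lowest of the 15, while the other 4 Sham libraries were above all AngII libraries. The Ptgds difference was 0.70 (SE 0.43, adjusted p = 0.297) for AngII + RvE1 against AngII and -1.13 (SE 0.43, adjusted p = 0.121) for AngII against Sham, and AngII against Sham without Sham library 1 gave -1.58 (adjusted p = 0.0232). Without AngII libraries 3, 4 and 5 the Ptgds differences were 0.28 and -0.71.

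The leukotriene branch begins with Alox5, which encodes 5-lipoxygenase. Its values were 1.51, 1.01, 1.06, 1.28 and 0.946 FPKM in AngII + RvE1 libraries, 0.902, 2.04, 3.99, 1.32 and 1.66 FPKM in AngII libraries, and 1.21, 0.893, 0.426, 1.42 and 1.19 FPKM in Sham libraries. AngII libraries 1 and 4 lay among the libraries of the other groups, and the differences were -0.39 (SE 0.22, limma adjusted p = 0.252) for AngII + RvE1 against AngII and 0.50 (SE 0.22, adjusted p = 0.164) for AngII against Sham, or -0.16 and 0.27 without AngII libraries 3, 4 and 5. Alox5ap (chr5:149265004-149288153, mm10) encodes the 5-lipoxygenase activating protein, which hands arachidonic acid to the enzyme. It had 8.57, 6.69, 7.25, 9.11 and 9.11 FPKM in AngII + RvE1 libraries, 6.22, 13, 98.3, 14.4 and 16.4 FPKM in AngII libraries, and 11.5, 5.02, 7.61, 7.90 and 7.23 FPKM in Sham libraries. AngII libraries 2 to 5 were above every library of the other groups and AngII library 1 was not. Alox5ap differed by -1.09 (SE 0.48, adjusted p = 0.153) for AngII + RvE1 against AngII and by 1.16 (SE 0.48, adjusted p = 0.147) for AngII against Sham. Without AngII library 1 both passed the threshold, at -1.44 (adjusted p = 0.0477) and 1.52 (adjusted p = 0.0458), and without AngII libraries 3, 4 and 5 they were -0.14 and 0.22.

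Ltc4s (chr11:50236461-50238532, mm10) encodes leukotriene C4 synthase, the first committed step toward the cysteinyl leukotrienes, which constrict smooth muscle and make small vessels leak. It had 19.5, 33.7, 20.8, 19.8 and 29.2 FPKM in AngII + RvE1 libraries, 36.9, 35.1, 73.8, 46.5 and 41.6 FPKM in AngII libraries, and 29.7, 28.0, 39.2, 31.1 and 18.9 FPKM in Sham libraries. Every AngII + RvE1 library was below every AngII library, with a small gap between AngII + RvE1 library 2 and AngII library 2, and Sham libraries overlapped both groups. Ltc4s averaged 24.6 ± 6.43 FPKM in AngII + RvE1, 46.8 ± 15.8 in AngII and 29.4 ± 7.25 in Sham. It was lower in AngII + RvE1 than in AngII by a difference of -0.88 (SE 0.23, 95% interval -1.36 to -0.40, limma adjusted p = 0.0325). For AngII against Sham the difference was 0.64 (SE 0.23, adjusted p = 0.105), and for AngII + RvE1 against Sham it was -0.25. The call was lost when any 1 of AngII libraries 3, 4 and 5 or AngII + RvE1 libraries 1, 3, 4 and 5 was left out (adjusted p = 0.0604 to 0.0826), and without AngII libraries 3, 4 and 5 together the difference was -0.56 (SE 0.26, adjusted p = 0.439), and that for AngII against Sham was 0.32.

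Lta4h (chr10:93453396-93484896, mm10) encodes leukotriene A4 hydrolase, which makes leukotriene B4. It had 16.6, 16.5, 17.0, 18.3 and 18.3 FPKM in AngII + RvE1 libraries, 17.3, 17.8, 26.2, 21.1 and 26.3 FPKM in AngII libraries, and 20.5, 16.4, 13.2, 16.5 and 17.9 FPKM in Sham libraries. AngII libraries 3, 4 and 5 were above all others, and AngII libraries 1 and 2 lay among the other groups. The differences were -0.29 (SE 0.14, limma adjusted p = 0.177) for AngII + RvE1 against AngII and 0.34 (SE 0.14, adjusted p = 0.141) for AngII against Sham. Without AngII libraries 3, 4 and 5 they were -0.02 and 0.06. The AngII + RvE1 libraries were close together for this gene, at 17.3 ± 0.903 FPKM against 21.7 ± 4.39 in AngII and 16.9 ± 2.64 in Sham.

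Markers of leukocytes moved with several of these genes. Of 9 macrophage and monocyte markers (Csf1r, Cd68, Adgre1, C1qa, C1qb, Mrc1, Lyz2, Cd14 and Ccr2), 4 were lower and 0 higher in AngII + RvE1 than in AngII, and in AngII against Sham 2 were higher and none lower. The median differences were -1.19 and 1.4, and without AngII libraries 3, 4 and 5 they were -0.42 and 0.47, with none of the 9 called in either comparison. Their summed FPKM was 233 to 305 in AngII + RvE1, 232 to 2906 in AngII and 190 to 307 in Sham, with 232, 487, 2906, 604 and 1179 in AngII libraries 1 to 5. Mast cell markers summed to 21.5 to 42.1 FPKM in AngII + RvE1, 25.8 to 180 in AngII and 21.9 to 47.1 in Sham, and 2 of the 6 tested, of 8 listed, were lower in AngII + RvE1 than in AngII. None of these markers was at 0 in every library of a group, though the mast cell markers Ms4a2 and Fcer1a were at 0 in at least 1 library of each group. AngII library 1, whose macrophage sum was that of the other groups, was also the AngII library with the lowest Tbxas1, Alox5 and Alox5ap. That did not hold for Ltc4s, which was 36.9 FPKM in AngII library 1, above the 35.1 FPKM of AngII library 2 and above every AngII + RvE1 library. Pearson's r with the macrophage list mean over 15 libraries was 0.94 for Alox5ap, 0.90 for Tbxas1 and 0.80 for Ltc4s, and over the 12 libraries without AngII 3, 4 and 5 it was 0.63, 0.31 and 0.35. The macrophage list was not singled out for Ltc4s, which had r of 0.78 with mast cell and 0.77 with lymphocyte markers over 15 libraries. Over the 12, its r was 0.69 with adipocyte, 0.63 with brown fat, 0.58 with lymphocyte and 0.55 with mast cell markers. Tbxas1 had r of 0.32 and -0.06 with platelet markers over 15 and 12 libraries.

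As shares of the macrophage sum, the ranges of the 3 groups overlapped. Alox5ap was 2.88 to 3.58% of that sum in AngII + RvE1, 1.39 to 3.38% in AngII and 2.14 to 4.46% in Sham, with medians of 2.98, 2.66 and 2.97%. Ltc4s was 6.98 to 14.5% in AngII + RvE1, 2.54 to 15.9% in AngII and 9.93 to 12.8% in Sham, with medians of 8.32, 7.2 and 11.7%. For Ltc4s the overlap of AngII and Sham came from AngII library 1 alone, and AngII libraries 2 to 5 were below every Sham library. Tbxas1 was 0.0837 to 0.476% in AngII + RvE1, 0.175 to 0.557% in AngII and 0.109 to 0.487% in Sham, with medians of 0.311, 0.361 and 0.366%. Ltc4s also ran against the smooth muscle list, with r of -0.79 over 15 and -0.71 over 12 libraries, and 2 of 8 adipocyte markers were lower in AngII + RvE1 than in AngII. Adipocyte markers summed to 8300 to 14833 FPKM in AngII + RvE1, 14058 to 20639 FPKM in AngII and 8994 to 20490 FPKM in Sham. The part of leukocyte, smooth muscle and fat content in these results was not tested.

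The 300 bases around the RefSeq start of Ltc4s and Tbxas1 (GRCm38.p6, the assembly behind mm10) are shown because these are the genes whose AngII + RvE1 libraries lay wholly below the AngII libraries. Each run covers 250 bases before the start and 50 from it, 5′ to 3′ on the gene's strand, at chr11:50238483-50238782 on the minus strand for Ltc4s and at chr6:38918736-38919035 on the plus strand for Tbxas1. For Tbxas1 the start in the promoter table lies inside the gene interval given above, downstream of that interval's own start. Capitals mark matches to the motifs searched on both strands.
Ltc4s promoter: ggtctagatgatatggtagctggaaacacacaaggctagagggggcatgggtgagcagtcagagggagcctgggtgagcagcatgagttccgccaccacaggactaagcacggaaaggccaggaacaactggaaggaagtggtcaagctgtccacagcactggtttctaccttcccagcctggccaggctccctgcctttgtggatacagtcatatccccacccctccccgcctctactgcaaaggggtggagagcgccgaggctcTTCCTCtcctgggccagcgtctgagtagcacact
Tbxas1 promoter: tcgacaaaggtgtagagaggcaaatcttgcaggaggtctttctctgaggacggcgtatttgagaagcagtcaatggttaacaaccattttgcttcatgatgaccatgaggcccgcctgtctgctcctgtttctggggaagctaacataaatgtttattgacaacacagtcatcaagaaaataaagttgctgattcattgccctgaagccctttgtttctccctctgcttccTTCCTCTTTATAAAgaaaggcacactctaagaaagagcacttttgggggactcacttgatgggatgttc
The promoter table held 8 of the 10 genes, all but Ptgis and Alox5ap, which are named only. The motifs were GAGGAA, a core read by ETS factors such as PU.1, TATAAA, the TATA box, GGGCGG, the GC box of Sp1, and CACGTG, an E-box. Ltc4s held 1 match, GAGGAA on the other strand. Tbxas1 held GAGGAA on the other strand and, next to it, TATAAA on both strands in overlapping positions, which counts as 2 matches. GAGGAA was found in 7 of the 8 genes and in 28.3% of 32851 promoter windows of the same length, GGGCGG in 3 of 8 and 35.7%, TATAAA in 1 of 8 and 13.6%, and CACGTG in 1 of 8 and 7.15%. These are matches of letters only.

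Among themselves the 10 genes varied together in pairs, some of which depended on AngII libraries 3, 4 and 5. Over the 15 libraries r was 0.91 between Tbxas1 and Alox5ap and 0.87 between Alox5 and Alox5ap, and over the 12 libraries without AngII 3, 4 and 5 it was 0.25 and 0.58. Ptgis and Ltc4s ran in opposite directions in both sets, at -0.77 and -0.69, as did Ptgds and Lta4h, at -0.82 and -0.87. Ptgis and Ptgs2 had r of 0.58 and 0.72. These values describe libraries that share tissue content and normalisation.

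**Figure D4:**
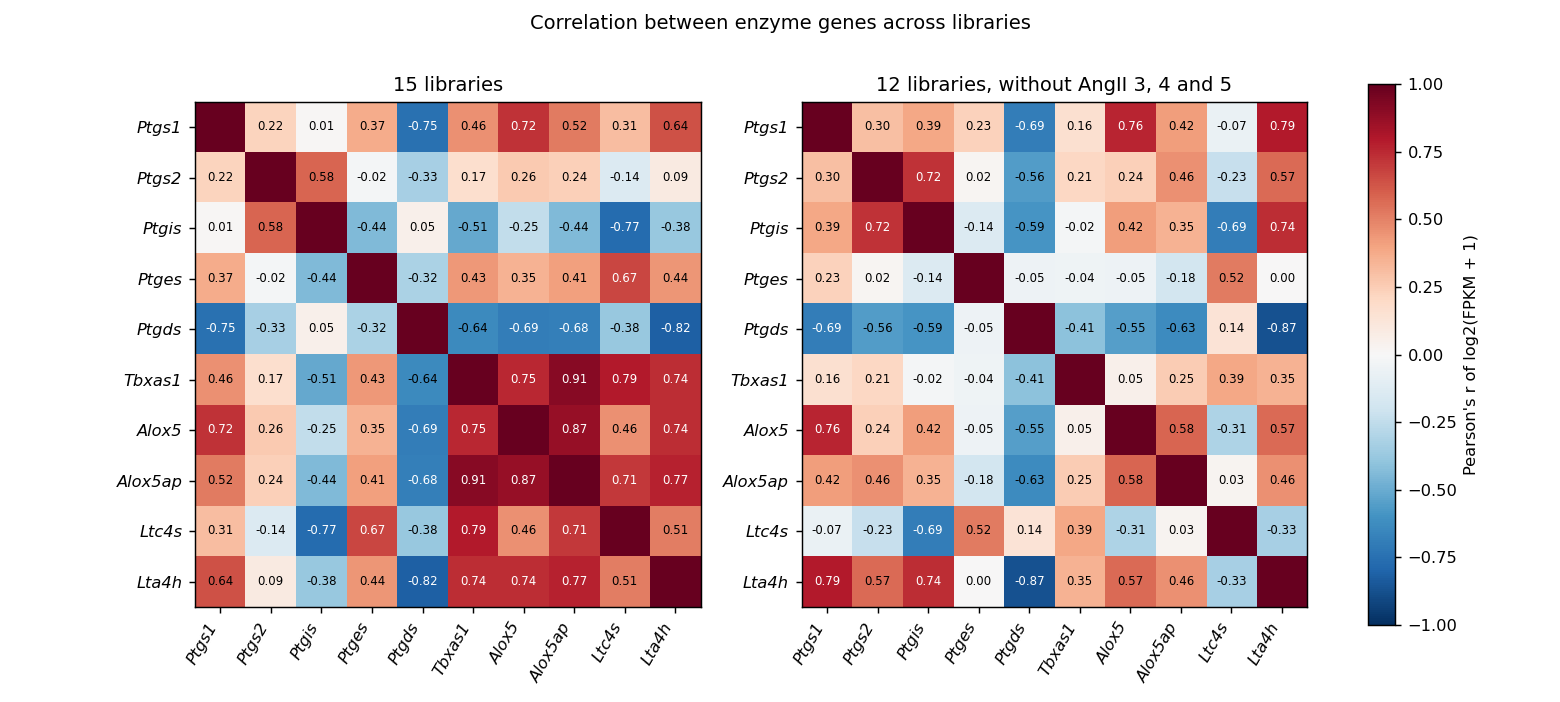
Pearson's r of log2(FPKM + 1) between each pair of the 10 enzyme genes over all 15 libraries and over the 12 libraries without AngII 3, 4 and 5, on a color scale from -1 to 1. The r of 0.91 between Tbxas1 and Alox5ap falls to 0.25 in the smaller set, while that of -0.82 between Ptgds and Lta4h is -0.87 there.

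The genes whose profile over the 15 libraries was most like that of each enzyme gene were found by the same r. For Ptgis they were Jph2 (0.99), a junction protein of muscle, Cspg4 (0.98), the NG2 proteoglycan of mural cells, and Acta2 (0.98), smooth muscle actin, and over 12 libraries r was 0.97 to 0.98. For Alox5ap they were Fcer1g (0.97), an Fc receptor subunit, Cd300c2 (0.97) and Adgre1 (0.96), the macrophage marker F4/80, with 0.89, 0.67 and 0.58 over 12 libraries. For Tbxas1 they were Ptafr (0.94), the receptor of platelet-activating factor, Adgre1 (0.93) and Ms4a6d (0.92), with 0.51, 0.39 and 0.29. Alox5 was closest to Ctsl (0.94), the protease cathepsin L, Rab7b (0.92) and Sned1 (0.92). For Ltc4s the nearest were Hfe (0.90), an iron regulator, Pepd (0.89), the dipeptidase prolidase, and Retn (0.88), the fat cell hormone resistin in mice.

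Genes with a profile like that of Ptgs2 included Tnfrsf10b (0.85), a death receptor, and Ifitm5 (0.83), with 0.91 and 0.83 over 12 libraries. For Ptgs1 the nearest were Wbp1l (0.89), Tpra1 (0.87) and Slco2a1 (0.87), the last of which encodes the prostaglandin transporter. Ptges was nearest to Slc25a10 (0.89), Gsta3 (0.87) and Slpi (0.87), a protease inhibitor of epithelia. Ptgds was nearest to Fam136a (0.93), Slc16a1 (0.91), the monocarboxylate transporter, and Osgepl1 (0.91), and Lta4h to H2ax (0.97), a histone variant, Cdk9 (0.96), a transcription kinase, and Poldip3 (0.96).

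The rest of the pathway was read from 7 lists that hold 57 genes of the table, 34 of which passed the filter. Of these 34, 1 was higher and 3 were lower in AngII + RvE1 than in AngII, where 4.21% of all tested genes were higher and 4.31% lower, so the lists held calls at a rate near that background. In the other comparisons 0 of the 34 were called. At the receptors, Tbxa2r, which encodes the thromboxane receptor, had 18.9, 11.4, 11.9, 20.2 and 21.2 FPKM in AngII + RvE1 libraries, 5.59, 6.47, 7.20, 8.48 and 7.23 FPKM in AngII libraries, and 22.5, 9.57, 5.13, 7.03 and 12.5 FPKM in Sham libraries. All AngII + RvE1 libraries were above all AngII libraries, and the difference was 1.11 (SE 0.29, limma adjusted p = 0.0349). Among the 6 tested receptor genes it was the only call. Ptger3, a prostaglandin E2 receptor, averaged 15.6 ± 10.1 FPKM in AngII + RvE1, 11.7 ± 3.31 in AngII and 31.3 ± 13.3 in Sham, with a difference of -1.27 for AngII against Sham (SE 0.36, adjusted p = 0.0622). Ptgfrn, a regulator of the prostaglandin F2 alpha receptor, and Ptger4, another prostaglandin E2 receptor, had differences of 0.19 and -0.27 for AngII + RvE1 against AngII.

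**Figure D5:**
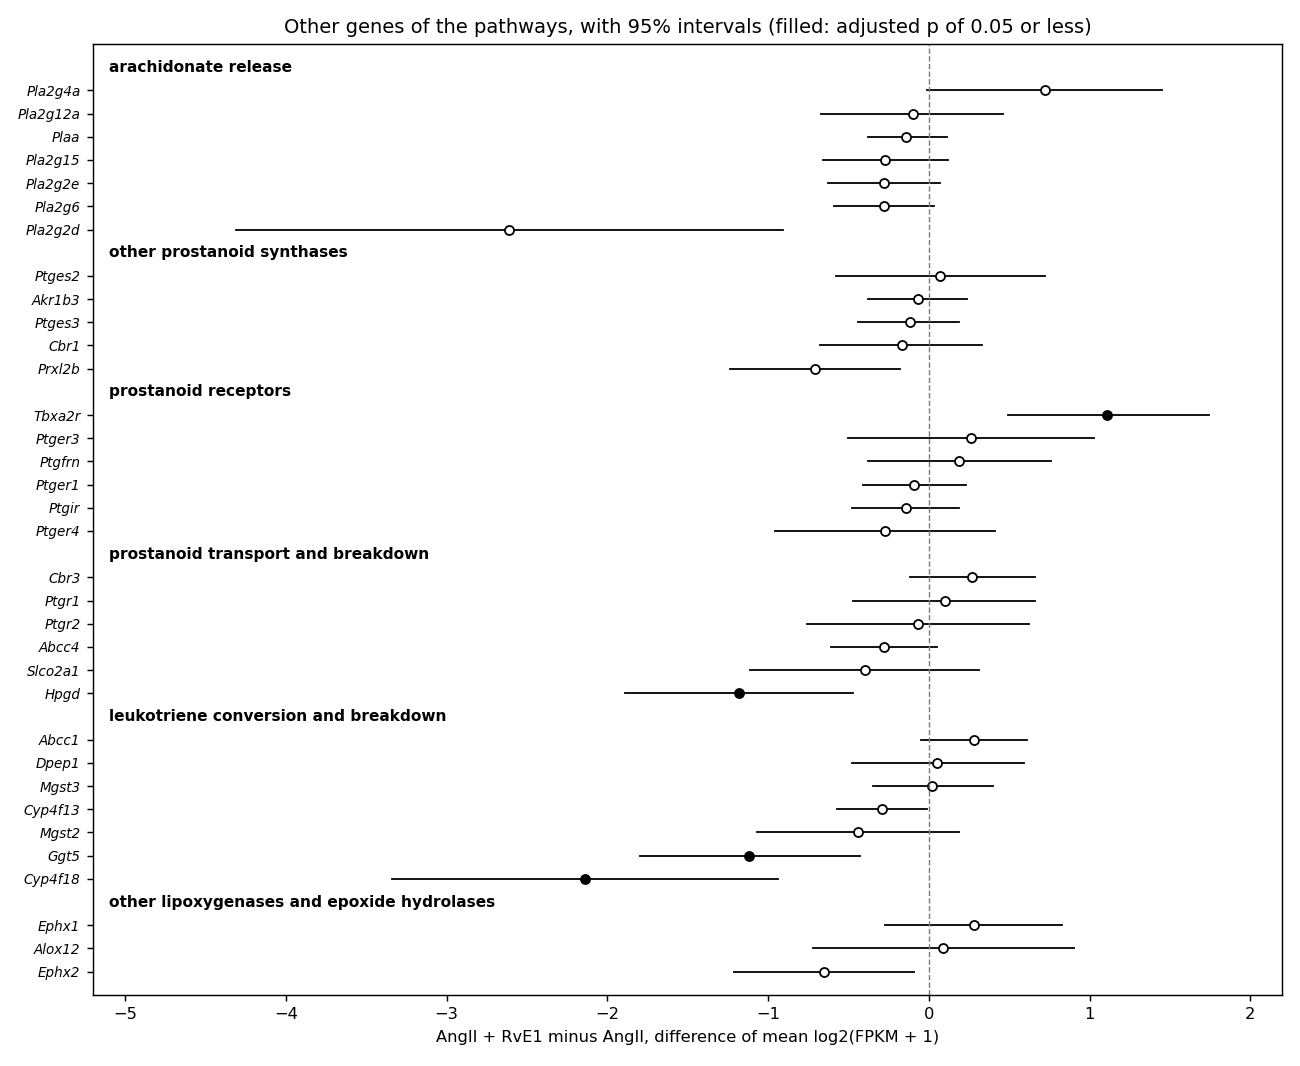
Log2 differences on the log2(FPKM + 1) scale for AngII + RvE1 against AngII, for the 34 tested pathway genes outside the 10 enzyme genes. Genes are grouped by list, with filled points for called genes. The 4 filled points are Tbxa2r (1.11), Hpgd (-1.18), Ggt5 (-1.12) and Cyp4f18 (-2.14).

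The 3 genes called lower were Hpgd, Ggt5 and Cyp4f18. Hpgd encodes the dehydrogenase that inactivates prostaglandins, and it averaged 3.48 ± 0.906 FPKM in AngII + RvE1, 10.6 ± 6.96 in AngII and 3.84 ± 1.04 in Sham, a difference of -1.18 for AngII + RvE1 against AngII (SE 0.33, limma adjusted p = 0.0426). Ggt5, a gamma-glutamyl transferase that converts leukotriene C4 to leukotriene D4, averaged 0.939 ± 0.356 FPKM in AngII + RvE1, 3.74 ± 2.64 in AngII and 0.988 ± 0.477 in Sham (-1.12, SE 0.32, adjusted p = 0.0451). Cyp4f18, a leukotriene B4 hydroxylase of mouse neutrophils, averaged 0.661 ± 0.211 FPKM in AngII + RvE1, 10.8 ± 11.4 in AngII and 0.961 ± 0.346 in Sham (-2.14, SE 0.56, adjusted p = 0.0350). Neutrophil markers summed to 12.8, 15.5, 279, 7.02 and 42.3 FPKM in AngII libraries 1 to 5, lowest in library 4. The part of neutrophils in the Cyp4f18 values was not tested. For all 3 genes AngII libraries 3, 4 and 5 were the highest of the 15, and they had 26.6, 5.82 and 18.9 FPKM of Cyp4f18, against 1.24 and 1.42 FPKM in AngII libraries 1 and 2. Without those 3 libraries 0 of the 34 genes were called in AngII + RvE1 against AngII, and the difference was 1.29 for Tbxa2r (adjusted p = 0.330), -0.30 for Hpgd, -0.25 for Ggt5 and -0.50 for Cyp4f18. The Tbxa2r difference was thus no smaller without them, while the other 3 were. Within AngII + RvE1 and within Sham, Tbxa2r ordered the libraries exactly as the summed smooth muscle markers did, and within AngII it did not. The part of smooth muscle content in the Tbxa2r difference was not tested. With libraries left out singly, the call was lost in 6 of 15 cases for Tbxa2r, 10 for Hpgd, 11 for Ggt5 and 7 for Cyp4f18. Outside AngII, Cyp4f18 reached 1 FPKM only in Sham libraries 3 and 4. Ggt5 did so only in AngII + RvE1 libraries 2 and 3 and Sham libraries 1 and 4. Both genes thus passed the filter through AngII, where they were highest, and their calls are not independent of that filter.

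The remaining lists held no called gene. Among genes of arachidonate release, Pla2g12a, Pla2g15 and Pla2g2d had the highest means over the 15 libraries. Pla2g2d did so through AngII alone, with means of 0.849 FPKM in AngII + RvE1, 24.7 in AngII and 1.38 in Sham. This gene, a secreted phospholipase of antigen-presenting cells, reached 63.8, 13.8 and 43.9 FPKM in AngII libraries 3, 4 and 5, against at most 2.61 FPKM in the other 12 libraries (difference -2.61 for AngII + RvE1 against AngII, SE 0.80, limma adjusted p = 0.0541). Pla2g4a, the cytosolic phospholipase that supplies these pathways in many cells, was chosen after its values were seen and averaged 7.67 ± 1.24 FPKM in AngII + RvE1, 4.59 ± 2.30 in AngII and 7.01 ± 4.21 in Sham. The most abundant other prostanoid synthases were Akr1b3, Ptges3 and Cbr1, and their differences lay between -0.17 and -0.07 for AngII + RvE1 against AngII. Among transport and breakdown genes, Ptgr2, Slco2a1 and Cbr3 differed by -0.07, -0.40 and 0.27. Mgst3, Dpep1 and Cyp4f13 led the leukotriene conversion list, with differences of 0.02, 0.05 and -0.29. Ephx2, Ephx1 and Alox12, of the other lipoxygenases and epoxide hydrolases, differed by -0.65, 0.28 and 0.09. None of the 5 leukotriene receptor genes passed the filter, and Cysltr1 and Ltb4r1, the receptors of cysteinyl leukotrienes and leukotriene B4, reached a value of 1 in 1 library each, AngII library 3, at 2.64 and 2.34 FPKM.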

How the data were processed

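RNA from mouse aorta was sequenced in 15 libraries, 5 per group, made with the SMARTer mRNA-Seq kit per the labels. The authors deposited 1 table of normalised values with decimals. The deposited table names no unit, and its values are treated as FPKM as made by the authors, with scaling to gene length assumed. Per the submitters' processing notes the build was mm10; the sources used here give no aligner, quantifier or annotation. Low values showed no whole-read steps: over 3397 gene pairs, the fullest bin of 0.02 on the log2 scale held 1.09%. Depth is unknown.

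The 12603 genes that reached 1 in 5 or more libraries were transformed as log2(FPKM + 1) and fitted with limma-trend (limma 3.58.1, R 4.3.3), 1 mean per group over 15 libraries, two-sided, with Benjamini-Hochberg adjustment over all tested genes at 0.05. The procedure was tested on simulated data. Members, lists and markers were chosen with earlier results of these data known. Named were all 10 members, called genes and up to 3 further genes of highest mean per list, and the 3 most correlated genes per member, leaving out unnamed symbols. A gene that this rule names is not reported here. Coordinates and promoters came from RefSeq GRCm38.p6.

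Alternatives were an added value of 0.1, no filter, fits of only the groups compared, a replicate block, rescaling by median ratio, each library left out in turn, and AngII libraries 3, 4 and 5 left out together.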

Additional observations from a re-analysis of the deposited data

Results flagged for a closer look

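Within groups of 5, a library was marked when its gap to the nearest other library, as a share of the group's range, was above Dixon's critical value of 0.710. This was checked for 10 genes in 3 groups, 30 in all. The critical value marks about 5% of groups of normally distributed values. The values here were untransformed FPKM of genes that share libraries, so that rate may not hold. There were 3 marks. Alox5ap in AngII library 3 was at 98.3 FPKM, with the next AngII library at 16.4, a gap of 0.89 of the range. Tbxas1 in AngII library 3 was at 11.6 FPKM, with the next at 2.11, a gap of 0.92 of the range. Ptges in AngII + RvE1 library 2 was at 5.83 FPKM, with the next at 2.5, a gap of 0.80 of the range. AngII library 3 also held the highest sum of macrophage and monocyte markers, 2906 FPKM, and the part of that in both of its values was not tested.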

How the results depend on the processing

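For AngII + RvE1 against AngII, the 2 enzyme genes called became 0 without the filter, 1 under the replicate block and 0 without AngII libraries 3, 4 and 5, and 0 to 4 with each library left out in turn. Ptgis had an adjusted p of 0.0550 and Ltc4s of 0.0648 without the filter, which tests more genes, and Ltc4s had 0.0581 under the block. For AngII against Sham the 0 called became 0 to 2 with a library left out: Ptgis was called without Sham library 3 (-1.71, adjusted p = 0.0329) or AngII library 2 (-1.63, adjusted p = 0.0359). For AngII + RvE1 against Sham it was 0 to 0.

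Over all genes, 1074 calls in AngII + RvE1 against AngII became 405 without the filter, 433 under the block, 6 without AngII 3, 4 and 5, and 98 to 2035 with a library left out. The 400 calls in AngII against Sham became 151, 109, 22 and 76 to 1719, and 37 in a fit of only those groups. The 3 calls in AngII + RvE1 against Sham became 1, 1, 5 and 1 to 8, and 1 in a fit of only those groups. Of 15 pairs of same-numbered libraries, correlations of deviations from group means were -0.414 to 0.521, and 4 were over 0.1, so the numbers were not taken to pair libraries. The block ended the calls of Ltc4s, Tbxa2r, Hpgd, Ggt5 and Cyp4f18 and changed no other call of the 10 enzyme genes. Other pathway genes were not read under it. Without the filter, Tbxa2r, Hpgd, Ggt5 and Cyp4f18 also lost their calls (limma adjusted p = 0.0707 to 0.0933). In a fit of only the groups compared, Hpgd, Ggt5 and Cyp4f18 lost theirs (adjusted p = 0.0622 to 0.0685) and Tbxa2r did not. All of these pathway genes stayed called with an added value of 0.1 and after rescaling. Rescaling moved the median of all genes from 0.112 to -0.004 in AngII against Sham, and the share of calls that were higher was 47.9% after rescaling and 74.5% before; in AngII + RvE1 against AngII it was 63.1% and 49.4%. Rescaling turned no enzyme gene's sign and ended neither call.

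Signs turned for Ptges in AngII + RvE1 against AngII (0.03 without AngII 3, 4 and 5) and in AngII against Sham (-0.29, and -0.05 to 0.23 with a library left out). With a library left out, AngII + RvE1 against Sham ran from -0.18 to 0.40 for Ptgs1, -0.12 to 0.12 for Tbxas1, -0.01 to 0.18 for Alox5, -0.05 to 0.21 for Alox5ap and -0.03 to 0.12 for Lta4h. The causes of these changes were not tested.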

Other observations

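Ratios of paired enzymes within a library do not depend on its scaling. Ptgis over Tbxas1, the synthases of prostacyclin and thromboxane, was 174 to 1048 in AngII + RvE1 (median 332), 3.78 to 74.3 in AngII (median 31.3) and 69.0 to 346 in Sham (median 262). AngII + RvE1 libraries were all above AngII libraries in this ratio, as their separation for each gene requires. Over the 15 libraries Ptgis had r of 0.98 with the smooth muscle list and Tbxas1 had r of 0.90 with the macrophage list. A ratio within a library still depends on its cell content, and the part of that content was not tested. Ptgs1 over Ptgs2, the cyclooxygenases, was 1.17 to 6.98 in AngII + RvE1 (median 1.58), 3.16 to 36.4 in AngII (median 13.5) and 1.5 to 11 in Sham (median 2.77), and the groups overlapped. Ltc4s over Lta4h, which compete for leukotriene A4, was 1.08 to 2.04 in AngII + RvE1 (median 1.22), 1.58 to 2.82 in AngII (median 2.14) and 1.06 to 2.96 in Sham (median 1.71), with overlap of all groups. These are ratios of transcript levels per length, and no test was run on them.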
